A study of Schizosaccharomyces pombe with 3 samples.

Results

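The genes described here are 7 fission yeast genes of nitrogen starvation and ammonium use, out of 7049 annotated rows in the count table. They are the vacuolar serine protease genes *isp6* (SPAC4A8.04) and *psp3* (SPAC1006.01), the oligopeptide transporter gene *isp4* (SPBC29B5.02c), the ammonium transporter genes *amt1* (SPCPB1C11.01), *amt2* (SPAC664.14) and *amt3* (SPAC2E1P3.02c), and the glutamine synthetase gene *gln1* (SPAC23H4.06). They were picked by name and role, with earlier results of these data known. Each was compared with the wild type clone by clone. All 7 passed the filter on low counts, so no member was lost before testing.

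Total RNA depleted of ribosomal RNA was sequenced strand by strand from 3 libraries. Of these, slow #1 and slow #2 come from 2 independent clones of *Schizosaccharomyces pombe* in which Rpb1, the large catalytic subunit of RNAPII, carries the N494D substitution at its own locus. The other library is of the parental strain (WT). All 3 strains are of mating type h-, carry ade6-M216 and leu1-32 together with the alleles his3-D1 and ura4-D18, and are labelled as deleted for *fex1* and *fex2*, and the slow clones differ from WT by the Rpb1 substitution alone as far as the labels say. Every culture was harvested in mid-log growth from EMM, a minimal medium whose usual nitrogen source is ammonium, with adenine, histidine, leucine and uracil added. No library of nitrogen-starved cells was included.

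When ammonium runs out, fission yeast cells stop growing, mate or enter a resting state, and break down their own proteins in the vacuole. Subtilisin-type proteases such as Isp6 and Psp3 carry out part of that breakdown, and the *isp* genes take their name from their induction under conditions that lead to sexual differentiation. While ammonium is present, Amt proteins of the plasma membrane carry it into the cell and glutamine synthetase joins it to glutamate to form glutamine. Glutamate synthase completes this cycle. The TOR kinases adjust these programs to the nitrogen supply, and the GATA factor Gaf1 is among the transcription factors that act under them.

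The DNA before the 7 start codons is shown because the GATA, Ste11 and Atf1 factors act at short motifs that can be read directly. The 1000 bases before the start codon were taken from RefSeq (ASM294v3), in which all 7 genes were matched, and both strands were searched. The core GATAA was present before 7 of the 7 genes and before 95.8% of all 5112 coding genes. The longer GATAAG, which contains GATAA, was present before 6 of the 7 genes (*amt2* was the exception) and before 33.8% of all coding genes. The stretches below run 5′ to 3′ on the strand of each gene. The capitals mark the match, which reads CTTATC where GATAAG lies on the opposite strand, and where *amt3* holds several matches the one farthest from its start codon is shown.
isp6, chrI:2544426-2544455, + strand: cacttgtttgagCTTATCgaccaatcacag
psp3, chrI:5067455-5067484, + strand: ttcgtcagcctcCTTATCctgtactacatt
isp4, chrII:1553770-1553791, - strand: tttgCTTATCagttctactttg
amt1, chrIII:2068807-2068836, + strand: tatagatctctgCTTATCtcgatcgttact
amt3, chrI:2927176-2927205, - strand: gagaacatatgaCTTATCctcagatttaca
gln1, chrI:1597729-1597758, - strand: tcgttcgatatcCTTATCtcggtttttcga
Counted from the start codon, the match begins at position -912 in *isp6*, -373 in *psp3* and -175 in *gln1*, where it lies inside the annotated transcript. GATAAG was present before genes whose RNA was higher in the slow clones and before genes whose RNA was lower.

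Other motifs were rarer. TTCTTTGTT, the core of the TR box bound by Ste11, was present before *psp3* and *amt2* and before 6.3% of coding genes. TGACGT, the core of the site bound by Atf1-Pcr1, was present before *isp6* and *amt3* and before 14.7% of coding genes. In *isp6* this match begins at position -841 and continues as a palindrome, so the motif is read on both strands of 1 stretch, whose capitals mark TGACGT.
isp6, chrI:2544497-2544526, + strand: agattagaggggTGACGTcaagtgaacata
Both *isp6* stretches lie inside SPNCRNA.834, an annotated noncoding RNA on the same strand, and inside SPNCRNA.3144. This is not particular to *isp6*. The stretches printed for *psp3* (SPNCRNA.4285), *isp4* (SPNCRNA.1442), *amt1* (SPNCRNA.7616 and SPNCRNA.7617) and *gln1* (SPNCRNA.2710) also lie inside annotated noncoding RNAs, and that of *amt3* does not. A match shows only that these letters are present, and factor binding was not measured.

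Some checks of the libraries come before the results. The counts summed to 40746838 in slow #1 and 30674459 in slow #2, against 31803128 in WT. Structural and mitochondrial RNAs took 6.27% and 6.49% of the counts in the slow libraries, against 3.82% in WT. Counts at *ura4*, deleted in these strains, were 0 in all 3 libraries. *his3*, whose allele is labelled his3-D1, was at 14.3 and 18.5 CPM in slow #1 and slow #2, against 16.0 CPM in WT. *fex1* was at 10.3 and 8.13 CPM in slow #1 and slow #2, against 17.2 CPM in WT, and *fex2* was at 14.0 and 18.9 CPM, against 22.3 CPM, although both are labelled as deleted. Which part of these rows was read cannot be resolved from counts per gene. The summed level of the 8 listed M-cell genes was 1294 and 1259 CPM in the slow clones, against 639.7 CPM in WT. That of the 3 matched P-cell genes was 348.6 and 360.9 CPM, against 335.2 CPM. Most of the P-cell sum was the protease gene *sxa1*, at 287 and 299 CPM in the slow clones, against 277 CPM in WT. The mating-type gene *mat1-Mc* was at 0 CPM in both slow clones, against 0.0625 CPM in WT. The part of these differences in the results was not tested.

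Levels are given as CPM, counts scaled to library size with the TMM factors of edgeR. Genes were tested with the quasi-likelihood test of edgeR over 6418 genes, and called at a Benjamini-Hochberg adjusted p (FDR) under 0.01 with a change above 1.5-fold. With 2 slow clones and 1 WT library there is 1 residual degree of freedom, and WT has no replicate. The spread between the clones is the only replicate error. The p-values draw on that spread, on counting error and on a variance shared across genes, which had 5.25 prior degrees of freedom. They do not measure any spread between WT cultures. Under these settings 0.312% of genes were called higher and 0.39% lower in the slow clones. Of the 7 genes, 0 were called in either direction. By the same test, 5 of the 7 had an unadjusted p under 0.05, namely *isp6* and *psp3*, which were higher, and *isp4*, *amt2* and *gln1*, which were lower. Such a p was common, being reached by 17.5% of all genes with a higher and 17.9% with a lower level in the slow clones. At an FDR under 0.05 with the same fold, 2 were higher and 2 lower, where 6.79% and 5.59% of all genes were called. DESeq2, run on the same counts, called *isp6* higher and *gln1* lower at an FDR under 0.01, where it called 5.08% of genes higher and 3.72% lower. In bulk RNA of a culture, fewer cells that express a gene and less RNA in each cell cannot be told apart.

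**Figure D1:**
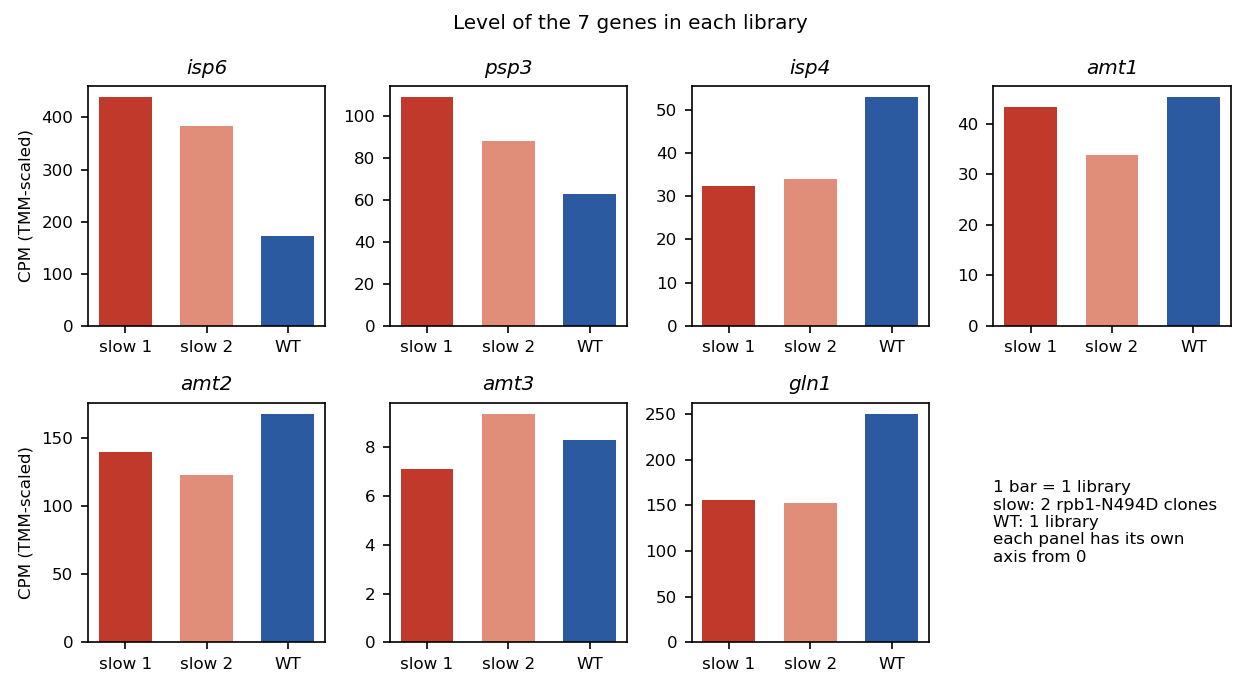
TMM-scaled CPM (y axis, linear from 0, one scale per gene) of the 7 genes in slow 1, slow 2 and WT, with 1 bar per library. Both slow bars stand above WT for *isp6* and *psp3*, below it for *isp4*, *amt1*, *amt2* and *gln1*, and on either side of it for *amt3*.

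The vacuolar protease gene *isp6* showed the largest difference among the 7. Its level was 438 CPM in slow #1 and 384 CPM in slow #2, against 173 CPM in WT, from 18151, 11534 and 5525 counts. Both clones lay well above WT and closer to each other than to it. The slow mean was 411 ± 38.2 CPM (SD, n = 2). The edgeR log2 fold change was 1.25 ± 0.15 (SE), or 2.38-fold, with an adjusted p of 0.0106 by the quasi-likelihood test, just outside the threshold. It ranked 182 of 6418 genes tested by fold change. Its adjusted p was 0.00403 with no filter on low counts, 0.00847 with TMM factors taken before the filter, an alternative chosen after seeing the data, and 2.3e-09 in DESeq2. The range over all 8 fits was 2.3e-09 to 0.0206, the highest value coming with RLE factors. The study measured a set of its differentially expressed genes by RT-qPCR, *isp6* among them, and reported good correlation with the sequencing across that set. Those genes were picked from these same libraries, so that choice and the direction of *isp6* seen here are not independent of each other. Per kilobase of exon, *isp6* stood at 202 and 177 CPM per kb in the slow clones, against 79.7 in WT, higher than 90.0% and 87.3% of coding genes in the slow libraries and 68.6% in WT.

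The gene of the related vacuolar protease Psp3 differed in the same direction by less. Its level was 109 CPM in slow #1 and 88.1 CPM in slow #2, against 62.8 CPM in WT. The groups did not overlap, and slow #2 lay nearer to WT than slow #1 did. The log2 fold change was 0.65 ± 0.16 (SE), or 1.57-fold, with an adjusted p of 0.0442 in edgeR and 0.0203 in DESeq2, so it was not called. The fold depends on the scaling, and was 0.47 on the log2 scale (adjusted p = 0.0894) when the libraries were scaled to *nda2*, *act1* and *fba1*, which are the reference genes of the study. That scaling moved the median of all genes to -0.18, against 0.01 with TMM factors. A change of scaling shifts all genes by nearly the same amount. The place of *psp3* above the median under both scalings is therefore no check on the scaling.

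The oligopeptide transporter gene *isp4* went the other way. Its level was 32.3 CPM in slow #1 and 34.1 CPM in slow #2, against 52.8 CPM in WT, from 1339, 1022 and 1690 counts. The clones were close to each other and both were below WT. The log2 fold change was -0.67 ± 0.13 (SE), or 0.628 of the WT level, with an adjusted p of 0.0269 in edgeR and 0.0179 in DESeq2. Its adjusted p over the 8 fits lay between 0.00192, with the scaling to the reference genes, and 0.0369.

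None of the ammonium transporter genes was called in edgeR or DESeq2. *amt2*, the most abundant of them, was at 140 CPM in slow #1 and 123 CPM in slow #2, against 168 CPM in WT. Both clones were below WT by less than 1.5-fold, with a log2 fold change of -0.35 ± 0.13 (SE) and an adjusted p of 0.109 in edgeR. *amt1* was at 43.3 CPM and 33.9 CPM in the slow clones, against 45.2 CPM in WT. Slow #1 was close to WT and slow #2 lower, and the log2 fold change of -0.22 ± 0.18 had an adjusted p of 0.403 in edgeR. *amt3*, the least abundant, was at 7.10 CPM in slow #1 and 9.37 CPM in slow #2, against 8.31 CPM in WT. The clones lay on either side of WT, and the log2 fold change of -0.02 ± 0.25 turned to 0.041 with upper-quartile factors. At 294, 281 and 266 counts its intervals are the widest of the 7.

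The 3 *amt* genes kept their order in every library. Summed per kilobase they reached 82.8 and 72.4 CPM per kb in the slow clones, against 96.8 in WT. *amt2* made up 77.2% and 77.4% of that sum in the slow clones, against 79.3% in WT. *amt1* took 19.2% and 17.1%, against 17.1%, and *amt3* took 3.60% and 5.42%, against 3.60%. The share of *amt3* was thus the same in slow #1 and WT to the digits given, and higher in slow #2.

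Glutamine synthetase RNA was lower in both clones. *gln1* was at 156 CPM in slow #1 and 152 CPM in slow #2, against 250.0 CPM in WT, from 6474, 4570 and 8000 counts. The clones agreed more closely with each other than for any other of the 7 genes, the difference of slow #2 from slow #1 being -0.04 on the log2 scale. The slow mean was 154 ± 2.87 CPM (SD, n = 2). The log2 fold change was -0.70 ± 0.12 (SE), or 0.617 of the WT level. The adjusted p was 0.0203 in edgeR and 0.00201 in DESeq2, and 0.000105 in edgeR with the scaling to the reference genes. The highest over the 8 fits was 0.0306. Per kilobase, *gln1* stood at 75.3 and 73.3 CPM per kb in the slow clones, where *isp6* was the most abundant of the 7, against 120 in WT, where *gln1* was.

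Each clone set against WT on its own gives the counting error, with 95% intervals from the exact binomial split of the counts. These cover counting error only. *isp6* differed by 1.34 (1.30 to 1.39) in slow #1 and by 1.15 (1.11 to 1.20) in slow #2 on the log2 scale. *psp3* differed by 0.79 (0.72 to 0.87) in slow #1 and by 0.49 (0.40 to 0.57) in slow #2, of which only that of slow #1 is beyond 1.5-fold. For both proteases the intervals of the clones do not overlap, so the clones differ from each other by more than counting error. *isp4* differed by -0.71 (-0.81 to -0.60) and -0.63 (-0.75 to -0.52), and *gln1* by -0.68 (-0.72 to -0.63) and -0.71 (-0.77 to -0.66). The intervals of the clones overlap for both of these genes. *amt1* differed by -0.06 (-0.16 to 0.04) in slow #1, which includes 0, and by -0.41 (-0.53 to -0.30) in slow #2. *amt2* differed by -0.26 (-0.32 to -0.21) and -0.45 (-0.51 to -0.39). The intervals of the clones do not overlap for *amt1* or *amt2* either, so this is not particular to the proteases. *amt3* differed by -0.23 (-0.47 to 0.02) and 0.17 (-0.08 to 0.42), and a difference of that size was not detectable at its depth in either clone. Both clones were above WT for 2 of the 7 genes and below it for 4, whereas 42.7% of the genes tested had both clones above and 42.6% both below. Both clones were beyond 1.5-fold higher for 1 gene, *isp6*, and lower for 2, *isp4* and *gln1*, where 583 and 369 of the 6418 genes tested, 14.8% in both directions together, met the same rule.

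**Figure D2:**
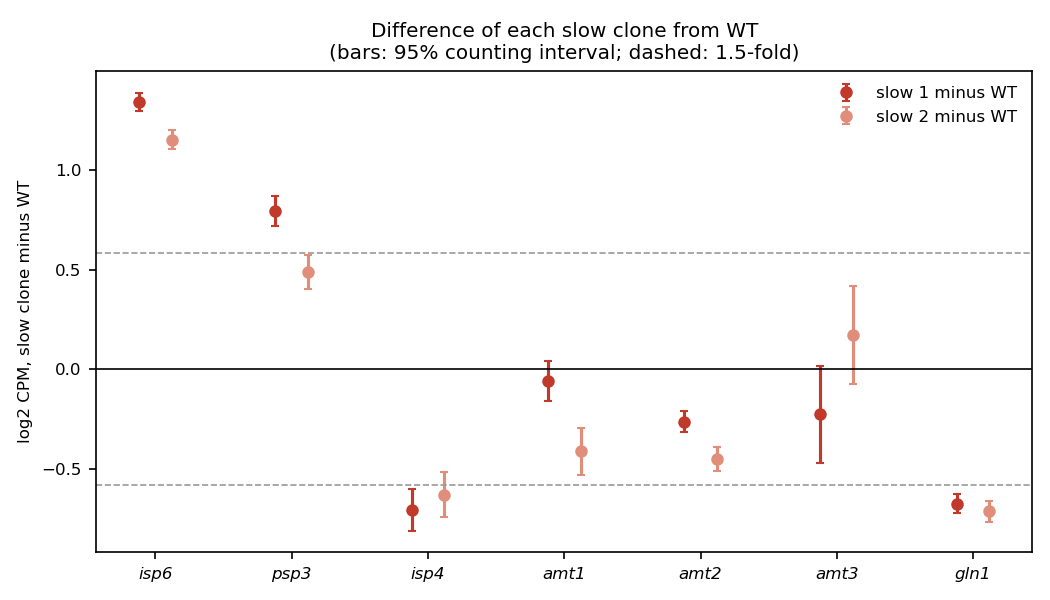
Difference of log2 CPM between each slow clone and WT (y axis) for the 7 genes, with 95% counting intervals as bars and 1.5-fold as dashed lines. *isp6* lies above the upper dashed line in both clones (1.34 and 1.15), *isp4* and *gln1* lie below the lower one, and *amt3* has its clones on either side of 0.

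Ratios between these genes inside 1 library do not depend on the scaling between libraries. Per kilobase, *isp6* had 2.69 and 2.42 times the reads of *gln1* in slow #1 and slow #2, against 0.662 times in WT. The order of the protease and the glutamine synthetase was therefore reversed between the slow clones and WT, and the 95% counting intervals were far apart (2.61 to 2.77 and 2.34 to 2.504, against 0.640 to 0.685). The ratio of *psp3* to *gln1* was 0.771 and 0.639, against 0.278 in WT. The ratio of *isp6* to *psp3* was 3.49 and 3.78, against 2.38, so the proteases did not change in proportion. The ratio of *isp6* to *amt2* was 3.17 and 3.16 in the slow clones, against 1.04 in WT. By contrast *gln1* over *isp4* was 7.39 (6.97 to 7.84) and 6.84 (6.39 to 7.32), against 7.24 (6.87 to 7.63) in WT, and these intervals overlap. The ratio of *amt1* to *amt2* was 0.248 and 0.221, against 0.216. With 1 WT library, none of these ratios has a replicate check on the WT side.

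**Figure D3:**
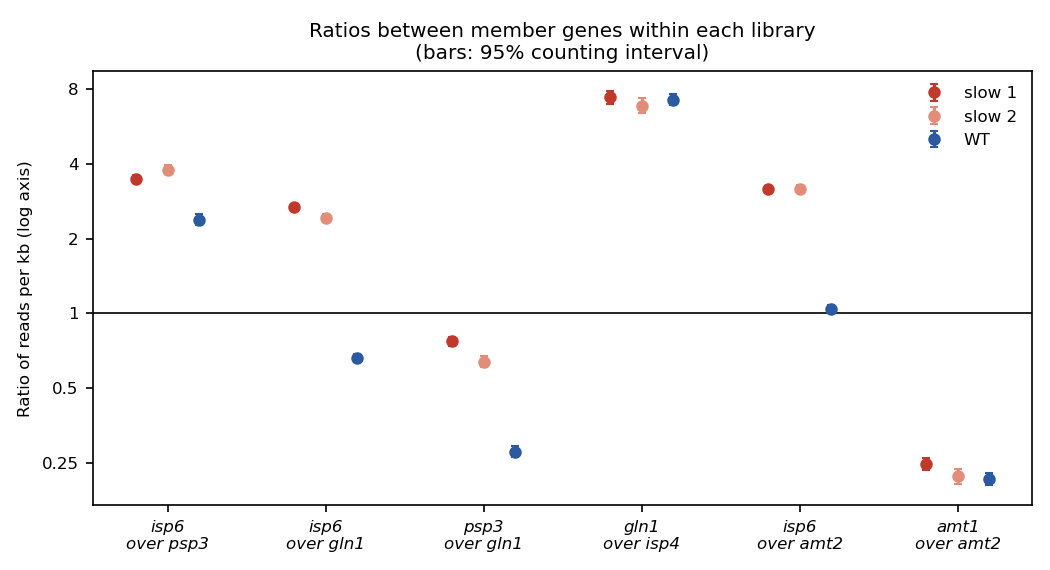
Ratio of reads per kilobase (y axis, log scale) for 6 pairs of the genes within slow 1, slow 2 and WT, with 95% counting intervals as bars. *isp6* over *gln1* lies above 1 in both slow clones (2.69 and 2.42) and below 1 in WT (0.662), while *gln1* over *isp4* is between 6.84 and 7.39 in all 3 libraries.

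The genes whose differences from WT in slow #1 and slow #2 were nearest to those of a member were looked up among 4904 coding genes with a mean count of at least 100. The measure was the Euclidean distance over the 2 clones, which share the same WT library. Nearest to *isp6* were *ecl3* (1.42 and 1.09, distance 0.0984), the acid phosphatase gene *pho1* (1.44 and 1.20, distance 0.110) and SPAC9E9.02 (1.44 and 1.22, distance 0.118). Nearest to *gln1* were *rpl701* (-0.68 and -0.70, distance 0.0135), the predicted polyamine transporter gene SPBC409.08 (-0.68 and -0.73, distance 0.0157) and *mot1* (-0.70 and -0.72, distance 0.0225).

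Transcripts beside or across the 7 genes were read from the same table (coordinates in ASM294v2). *isp6* spans 2544815 to 2546981 on the forward strand of chromosome I and shares 97 bases at its 5′ side with the noncoding RNA SPNCRNA.834. SPNCRNA.834 was at 6.76 and 7.23 CPM in the slow clones, against 4.91 CPM in WT, a log2 fold change of 0.51 ± 0.23 (SE, edgeR adjusted p = 0.173). It was lower in level per kilobase than *isp6* by 61.2 and 50.2 times in the slow clones and by 33.2 times in WT. Pairs of reads in the shared bases may have been assigned to neither row, and these bases are a small part of the 2167-base row. *isp4*, on the reverse strand of chromosome II, has the bZIP factor gene *atf1* on the opposite strand 430 bases downstream. *atf1* was at 232 and 240 CPM in the slow clones, against 113 CPM in WT (log2 fold change 1.06 ± 0.13, edgeR adjusted p = 0.0105), and thus lay in the other direction from *isp4*. SPNCRNA.1442, which begins 41 bases upstream of *isp4* on the opposite strand, was at 5.92 and 5.67 CPM, against 3.47 CPM in WT (adjusted p = 0.0917 in edgeR). *asa1*, 187 bases downstream of *psp3* on the same strand, was at 51.6 and 43.7 CPM, against 86.5 CPM in WT (log2 fold change -0.86, edgeR adjusted p = 0.0189).

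The ammonium transporter genes *amt2* and *amt3* are each covered by an annotated antisense RNA, and the counting used strand. SPNCRNA.758, which overlaps *amt2* by 1551 bases, was at 25.0 and 29.1 CPM in the slow clones, against 26.1 CPM in WT. Sense exceeded antisense per kilobase at *amt2* by 4.08 and 3.09 times in the slow clones, and by 4.71 times in WT. SPNCRNA.859, which overlaps *amt3* by 1792 bases, was at 14.3 and 17.6 CPM, against 14.2 CPM in WT. At *amt3* the antisense row was the more abundant one in every library, with a ratio of sense to antisense per kilobase of 0.373 and 0.400, against 0.439 in WT. The log2 fold changes of the antisense rows, 0.05 ± 0.17 and 0.16 ± 0.20, were not called (adjusted p = 0.845 and 0.593, edgeR), and both turned negative (-0.14 and -0.028) with the scaling to the reference genes. Upstream of *amt2*, the succinate dehydrogenase assembly gene *sdh6* was at 31.6 and 34.0 CPM, against 50.5 CPM in WT (adjusted p = 0.0323, edgeR). Beside *gln1*, SPAC23H4.07c, a gene of the signal recognition particle receptor that ends 48 bases downstream on the opposite strand, was at 127 and 152 CPM, against 146 CPM in WT.

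SPNCRNA.835, 111 bases downstream of *isp6*, was at 1.4975 and 3.27 CPM, against 1.84 CPM in WT, and the dehydrogenase gene SPAC2E1P3.01, which overlaps the end of *amt3* by 29 bases on the opposite strand, was at 30.0 and 21.7 CPM, against 29.1 CPM. The clones lay on either side of WT for both. The rows read were those overlapping 1 of the 7 genes and the nearest row on each side within 1000 bases. Of these 13 rows, 10 were tested and 0 were called in edgeR. The other 3, both tRNA genes and the retrotransposon Tf2-3, had at most 7 counts in a library. An unadjusted p under 0.05 was reached in edgeR by *atf1* and SPNCRNA.1442, which were higher, and *asa1* and *sdh6*, which were lower, beside 17.5% and 17.9% of all genes. DESeq2 called 1 higher and 1 lower, where it called 5.08% and 3.72% of all genes.

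Other genes of the nitrogen program were taken from lists chosen by role, with earlier results of these data known. Of 123 tested genes other than the 7, 2 were called higher and 1 lower (1.63% and 0.813%, beside 0.312% and 0.39% of all genes). At an FDR under 0.05 with the same fold, 8 were higher and 10 lower, or 6.50% and 8.13%, close to the shares of 6.79% and 5.59% over all genes. DESeq2 called 9 higher and 6 lower, where it called 5.08% and 3.72% of all genes.

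Among 16 tested genes listed as vacuolar proteases and hydrolases, *isp6* and *psp3* included, 0 were called in edgeR. An unadjusted p under 0.05 was reached by 6, of which 4 were higher and 2 lower, beside 17.5% and 17.9% of all genes. DESeq2 called 1 higher, *isp6*, where it called 5.08% of all genes higher. The aminopeptidase gene *ape4* was at 102 and 87.0 CPM in the slow clones, against 68.7 CPM in WT (log2 fold change 0.46 ± 0.14, edgeR adjusted p = 0.0727). The dipeptidyl peptidase gene *dpe1* was at 127 and 106 CPM, against 82.9 CPM (0.49 ± 0.15, adjusted p = 0.0697 in edgeR). The median log2 fold change of the 14 listed genes other than *isp6* and *psp3* was 0.02, beside 0.01 over all genes. In this list *tpp1*, *ppp16* and *fma2* name proteins of another role, and *ysp2* is annotated as cytoplasmic. Without *tpp1*, *ppp16* and *fma2* the median of 13 genes, *isp6* and *psp3* included, was 0.19, against 0.07 for all 16.

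Autophagy delivers cell contents to the vacuole where these proteases act. Among its 30 listed genes, 1 was called higher and 0 lower in edgeR, beside 0.312% and 0.39% of all genes. *atg44*, which encodes the mitochondrial fission factor mitofissin, rose to 417 and 481 CPM in the slow clones, against 159 CPM in WT (log2 fold change 1.49 ± 0.16, edgeR adjusted p = 0.00957). The choline transporter family gene *ctl1* was at 140.0 and 166 CPM, against 94.2 CPM (0.70 ± 0.15, adjusted p = 0.0306 in edgeR). The mitophagy receptor gene *atg43* was at 127 and 130 CPM, against 92.0 CPM, and *atg16* was at 11.7 and 9.47 CPM, against 18.8 CPM. The list's median was 0.32, and an unadjusted p under 0.05 was reached by 12 genes that were higher and 2 that were lower, beside 17.5% and 17.9% of all genes.

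Among 11 genes of ammonium assimilation and the glutamate family, 0 were called in edgeR. By an unadjusted p under 0.05, 1 was higher and 7 were lower, *gln1* included, beside 17.5% and 17.9% of all genes. DESeq2 called 1 higher and 2 lower, where it called 5.08% and 3.72% of all genes. *glt1*, which encodes glutamate synthase, the partner of glutamine synthetase in the cycle, was at 704 and 727 CPM in the slow clones, against 1213 CPM in WT. Its log2 fold change of -0.76 ± 0.16 (edgeR adjusted p = 0.0288) was near that of *gln1*. The gene higher at an unadjusted p under 0.05 in edgeR was *gdh2*, which encodes the NAD-dependent glutamate dehydrogenase that releases ammonium from glutamate. It was at 1022 and 886 CPM, against 535 CPM (0.84 ± 0.18, adjusted p = 0.0311 in edgeR). The proline dehydrogenase gene *put1* was at 173 and 166 CPM, against 239 CPM. The median over the 10 genes other than *gln1* was -0.38, and it was -0.41 with *gln1* in the list.

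Among 5 genes listed for peptide transport, *isp4* included, 1 was called lower in edgeR, beside 0.39% of all genes. The list holds *mfc1*, a symbol of another role, with a log2 fold change of 0.56. The list's median was -0.84 without *mfc1* and -0.67 with it. *ptr2*, which encodes a di- and tripeptide transporter of the PTR family, fell to 48.2 and 41.5 CPM in the slow clones, against 117 CPM in WT (log2 fold change -1.38 ± 0.13, edgeR adjusted p = 0.00715). The glutathione transporter gene *pgt1*, of the same OPT family as *isp4*, was at 126 and 131 CPM, against 258 CPM (-1.01 ± 0.12, adjusted p = 0.0105 in edgeR). Among the 4 tested genes of urea and other nitrogen use besides the *amt* genes, *nic1*, whose nickel transporter supplies urease, was at 70.9 and 63.0 CPM, against 105 CPM, and the urease accessory gene *ure6* was at 42.8 and 38.3 CPM, against 62.1 CPM. Of the 7 tested with the *amt* genes, 0 were called in edgeR and in DESeq2, and 3 had an unadjusted p under 0.05, all lower, beside 17.9% of all genes.

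The 15 genes grouped as nitrogen starvation induced did not share a direction. With *isp6* and *isp4* among them, 0 were called in edgeR. An unadjusted p under 0.05 was reached by 6 higher and 6 lower genes, beside 17.5% and 17.9% of all genes. DESeq2 called 6 higher and 2 lower, where it called 5.08% and 3.72% of all genes. The proline transporter gene *put4* was at 13.9 and 16.0 CPM in the slow clones, against 38.9 CPM in WT (log2 fold change -1.38 ± 0.16, edgeR adjusted p = 0.0105). *ste4*, a gene of the mating pathway, was at 192 and 199 CPM, against 109 CPM (0.84 ± 0.12, adjusted p = 0.0147 in edgeR). The invertase gene *inv1*, better known for its repression by glucose, was at 47.2 and 36.7 CPM, against 15.9 CPM (1.40 ± 0.20, adjusted p = 0.0145 in edgeR). The list's median was -0.02.

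Among 49 genes of TOR and nitrogen signalling, 1 was called higher and 0 lower in edgeR, beside 0.312% and 0.39% of all genes. The list's median was -0.06. By an unadjusted p under 0.05, 5 were higher and 8 lower, beside 17.5% and 17.9% of all genes. *bit2*, which encodes a HbrB family protein of TOR signaling, rose to 18.4 and 17.3 CPM in the slow clones, against 4.03 CPM in WT (log2 fold change 2.15 ± 0.21, edgeR adjusted p = 0.00728). *any1*, which encodes an arrestin-related adaptor for ubiquitin ligases, was at 287 and 313 CPM, against 665 CPM (-1.15 ± 0.14, adjusted p = 0.0105 in edgeR). The GTPase activator gene *tsc2* was at 210 and 203 CPM, against 290 CPM, and the Ragulator subunit gene *lam4* was at 35.6 and 49.5 CPM, against 23.6 CPM.

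**Figure D4:**
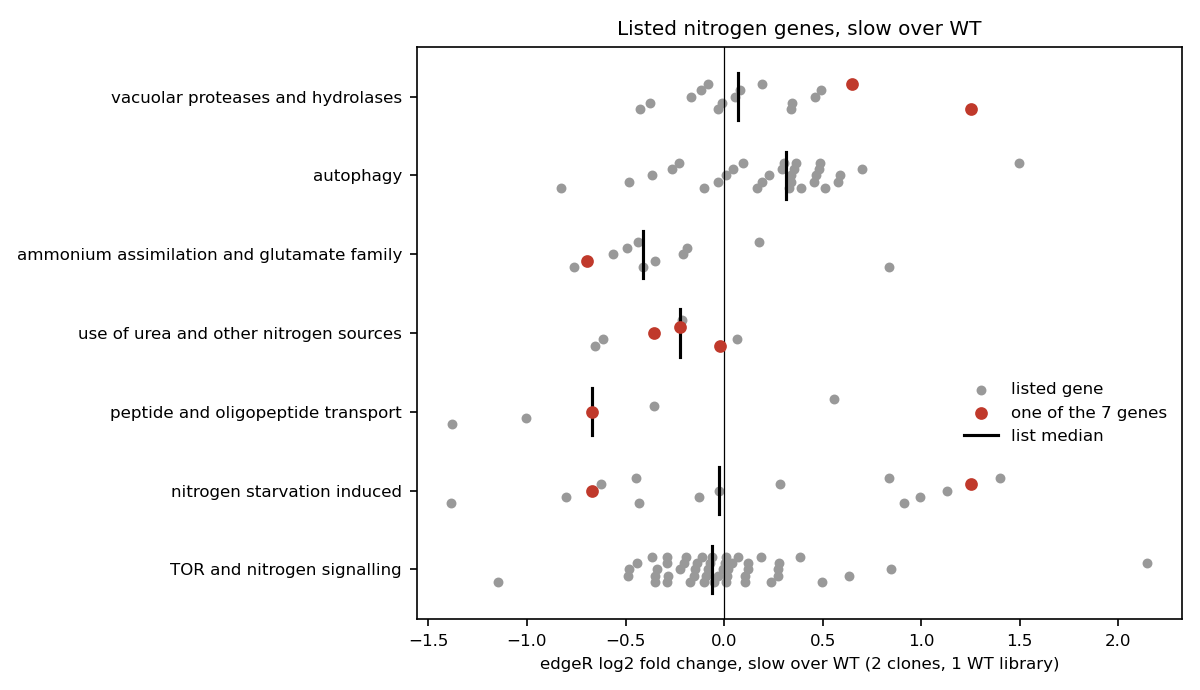
edgeR log2 fold change of slow over WT (x axis) for each tested gene of 7 nitrogen lists, with the 7 genes described here in red and each list's median as a black line. *isp6* lies at 1.25 and *psp3* at 0.65 on the right, and *isp4* and *gln1* lie at -0.67 and -0.70 on the left. The medians run from -0.67 for the 5 genes listed for peptide transport, *mfc1* included, to 0.32 for autophagy.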

How the data were processed

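RNA of 2 *rpb1-N494D* clones and 1 parental strain was sequenced. Per the labels and the paper's methods, the authors trimmed reads with Trimmomatic 0.36, aligned them with STAR 2.5.1 to ASM294v2, and counted read pairs per gene by strand with featureCounts. The deposited values are raw counts. Other deposited values used here are gene lengths, in bases of exon. No option for reads shared by several rows is named, so pairs in overlapping or repeated rows may be missing.

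Counts were analysed in R 4.3.3 with edgeR 4.0.16 (filterByExpr, minimum count 10 and total 15, then TMM factors of 1.02, 0.978 and 1.01 for slow #1, slow #2 and WT). The quasi-likelihood fit had a common dispersion of 0.0124 and 5.25 prior degrees of freedom. Each standard error was taken from the fold change and its F statistic. Clone differences use a prior count of 2, and intervals are exact binomial at 95% (SciPy 1.17.1). DESeq2 1.42.0, other scalings and filters were alternatives. The fit was tested on simulated data.

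The members, lists and tests were chosen with earlier results of these data known. Named are the 7 genes, the rows overlapping them and the nearest row on each side within 1000 bases. Also named are up to 4 genes of each list by lowest adjusted p, and the 3 coding genes nearest in pattern to *isp6* and *gln1*. Of the 7049 identifiers 6641 were matched to RefSeq. Listed symbols that name proteins of another role (*tpp1*, *ppp16*, *fma2*, *mfc1*, *inv1*, *mug113*, *fep1*) were kept, and 8 symbols had no match. These were *ape1*, *ysp1*, *gad1* and *dur31* of the lists, and *mat1-Pc*, *mat1-Pi*, *mat1-Pm* and *mat2-Pc* of the library checks.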

Additional observations from a re-analysis of the deposited data

How the results depend on the processing

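With 1 residual degree of freedom and no WT replicate, the number of calls depends strongly on the setting. The direction of the 7 genes does not, except for *amt3*, which turned to 0.041 with upper-quartile factors. All fits use the same 3 libraries, and the settings moved the median log2 fold change of all genes only between -0.18 and 0.07. A steady direction therefore does not stand in for a WT replicate. The antisense rows SPNCRNA.758 and SPNCRNA.859 turned to -0.14 and -0.028 with the scaling to *nda2*, *act1* and *fba1*. The genes called higher and lower, 20 and 25, became 0 and 0 with RLE factors (smallest adjusted p 0.0102), 187 and 611 with the scaling to the reference genes, 127 and 129 with no filter, 4 and 11 without structural and mitochondrial RNAs, 59 and 72 with TMM factors taken before the filter, 321 and 235 in DESeq2, and 436 and 359 at an FDR under 0.05. Of the 7 genes, *isp6* passed with the reference scaling (1.07), no filter (1.25), TMM factors before the filter (1.25) and DESeq2 (1.25). *gln1* passed with the reference scaling (-0.88) and in DESeq2 (-0.70), and *isp4* with the reference scaling (-0.86). At an FDR under 0.05 *isp6* (1.25), *psp3* (0.65), *isp4* (-0.67) and *gln1* (-0.70) passed, 2 higher and 2 lower. With the same fold, *psp3* passed at that FDR in 5 of the 8 fits, and *isp6*, *isp4* and *gln1* in 8 of 8. At an FDR under 0.01, members called higher and lower were 1 and 2 with the reference scaling. They were 1 and 0 with no filter and with TMM factors before the filter, and 1 and 1 in DESeq2. Other listed genes called higher and lower, 2 and 1, became 0 and 0 with RLE factors and without structural RNAs, 6 and 13 with the reference scaling, 5 and 4 with no filter, 9 and 6 in DESeq2, and 8 and 10 at an FDR under 0.05. Lower calls among them were 0 with upper-quartile factors and 4 with TMM factors before the filter. Adjacent transcripts called higher and lower, 0 and 0, became 1 and 2 with the reference scaling and at an FDR under 0.05, 1 and 1 with no filter and in DESeq2, and 1 and 0 with TMM factors before the filter. The cause of these shifts was not tested. The TMM factors before the filter and the lists without symbols of another role were chosen after seeing the data. Leaving out 1 clone leaves 1 library against 1 and no test, so its values are the clone differences of the report. No paired analysis was possible because the labels number the slow clones only. At 266 to 294 counts, depth limits *amt3* most.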
